A study of Homo sapiens with 12 samples.

Results

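The 58 genes described here encode enzymes that add or remove methyl and acetyl groups on histone lysines, though not every such enzyme. They comprise 15 lysine demethylases, 25 lysine methyltransferases, 9 deacetylases of the zinc-dependent family and 9 acetyltransferases. They were taken by symbol from a table of 62754 gene identifiers by a rule on gene names, and all 58 were found. Expression came from polyadenylated RNA of PC9, a human lung adenocarcinoma line that depends on mutant EGFR. All 12 libraries came from a subclone of that line, in 4 groups of 3 cultures that were split from 1 flask and then kept apart. WT was TDP1 wild-type PC9 without drug. DTC (drug-tolerant cells) was the wild-type line after 7 days in erlotinib, an EGFR kinase inhibitor, at 1 µM, and DTEC (drug-tolerant expanded cells) was the same line after 28 days at that dose. KO was the TDP1 knockout line KO2, also without drug and the only knockout line measured. TDP1 removes trapped topoisomerase 1 from DNA ends.

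Acetylation of histone lysines by acetyltransferases opens chromatin and marks active promoters and enhancers, and deacetylases remove it. Methylation is read by position: H3K4 and H3K36 methylation go with active genes, H3K9 and H3K27 methylation with silent ones, and most positions have their own writers and erasers. In EGFR inhibitor tolerance the family is known mainly through KDM5A, an eraser of H3K4 methylation that has been described as needed for the reversible drug-tolerant state of PC9 cells, and through deacetylase inhibitors, which reduce the number of tolerant cells.

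Library totals were 25572691 to 38373679 estimated counts, and every member had at least 44 counts in every library, so all 58 passed the filter on low counts. CPM (counts scaled to a common TMM-adjusted library total) was used for levels, and a gene was called where edgeR's quasi-likelihood test, fitted over all 17115 genes that passed the filter, gave a Benjamini-Hochberg adjusted p under 0.05. The labels put all libraries in 1 batch. RNA was read in bulk, so fewer cells of a kind and less RNA per cell cannot be told apart. TDP1 itself stood at 28.1, 25.1 and 25.8 CPM in WT and at 10.1 to 11.3 CPM in KO (41.0% of WT, log2 fold change -1.29, edgeR adjusted p = 1.3e-05). DTC replicate 1 stood apart from the other DTC libraries: it was the highest of the 3 for 41 of the 58 members. Epithelial markers summed to 8862 to 9330 CPM in WT, 4465 to 5022 CPM in DTC, 7480 to 9812 CPM in DTEC and 9542 to 10260 CPM in KO. KRT8 and KRT18 made up most of these sums, with means of 4015 and 2930 CPM in WT and 1869 and 1184 CPM in DTC. Of the 5 markers 4 were called lower in DTC. CDH1 was not, with means of 285 CPM in WT and 298 CPM in DTC. Blood markers summed to at most 0.997 CPM anywhere. The 4 lung lineage markers (NKX2-1, NAPSA, SFTPB and SFTPC) summed to 1.21 to 2.33 CPM in WT, 1.39 to 2.55 CPM in DTC, 12.3 to 17.5 CPM in DTEC and 5.51 to 7.54 CPM in KO. NKX2-1 and SFTPC did not exceed 0.442 and 0.088 CPM in any library, while SFTPB was at 11.7 to 17.1 CPM in DTEC. From WT to DTC the mean of SFTPB went down from 1.51 to 0.07 CPM. Over the same step NAPSA went up from 0.13 to 1.62 CPM and NKX2-1 from 0.03 to 0.37 CPM. Endothelial markers (PECAM1, CDH5 and VWF) summed to 58.5 to 61.4 CPM in WT, 41.9 to 49.5 CPM in DTC and 122 to 142 CPM in DTEC. They did not move together. The mean of PECAM1 was 32.0 CPM in WT, 8.77 CPM in DTC and 92.1 CPM in DTEC. For CDH5 it was 27.7, 35.0 and 36.7 CPM, and for VWF 0.12, 1.57 and 0.41 CPM.

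After 7 days of erlotinib the family was lower on balance. Of the 58 members 45 were called, 35 lower and 10 higher, where 67.3% of all tested genes were called (33.3% lower and 34% higher). At 2-fold or more 12 were called lower and 4 higher (13.9% and 22.3% of all genes). The median log2 fold change of the members was -0.60, against 0.06 over all tested genes. The 58 transcripts together made up 4657 to 4774 CPM in WT and 2780 to 3395 CPM in DTC. With total-count scaling, which raises the median of all genes in DTC by 0.35 on the log2 scale, the split was 27 lower and 15 higher. In that fit 68.39% of the 11710 called genes were higher, against 35.71% of the called members.

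By class, 8 of 9 acetyltransferases and 17 of 25 methyltransferases were called lower in DTC, with medians of -0.89 and -0.61. Of the 15 demethylases 6 were called lower and 3 higher, with a median of -0.12. Of the 9 deacetylases 4 were called lower and 3 higher, with a median of -0.18. Of all tested genes 33.3% were called lower and 34% higher. Calls in either direction covered 60% of the demethylases and 77.8% of the deacetylases, against 67.3% of all genes. The acetyltransferases summed to 652 to 752 CPM in WT, 333 to 461 CPM in DTC and 598 to 691 CPM in DTEC. The deacetylases held both the largest fall and the largest rise of the family.

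**Figure D1:**
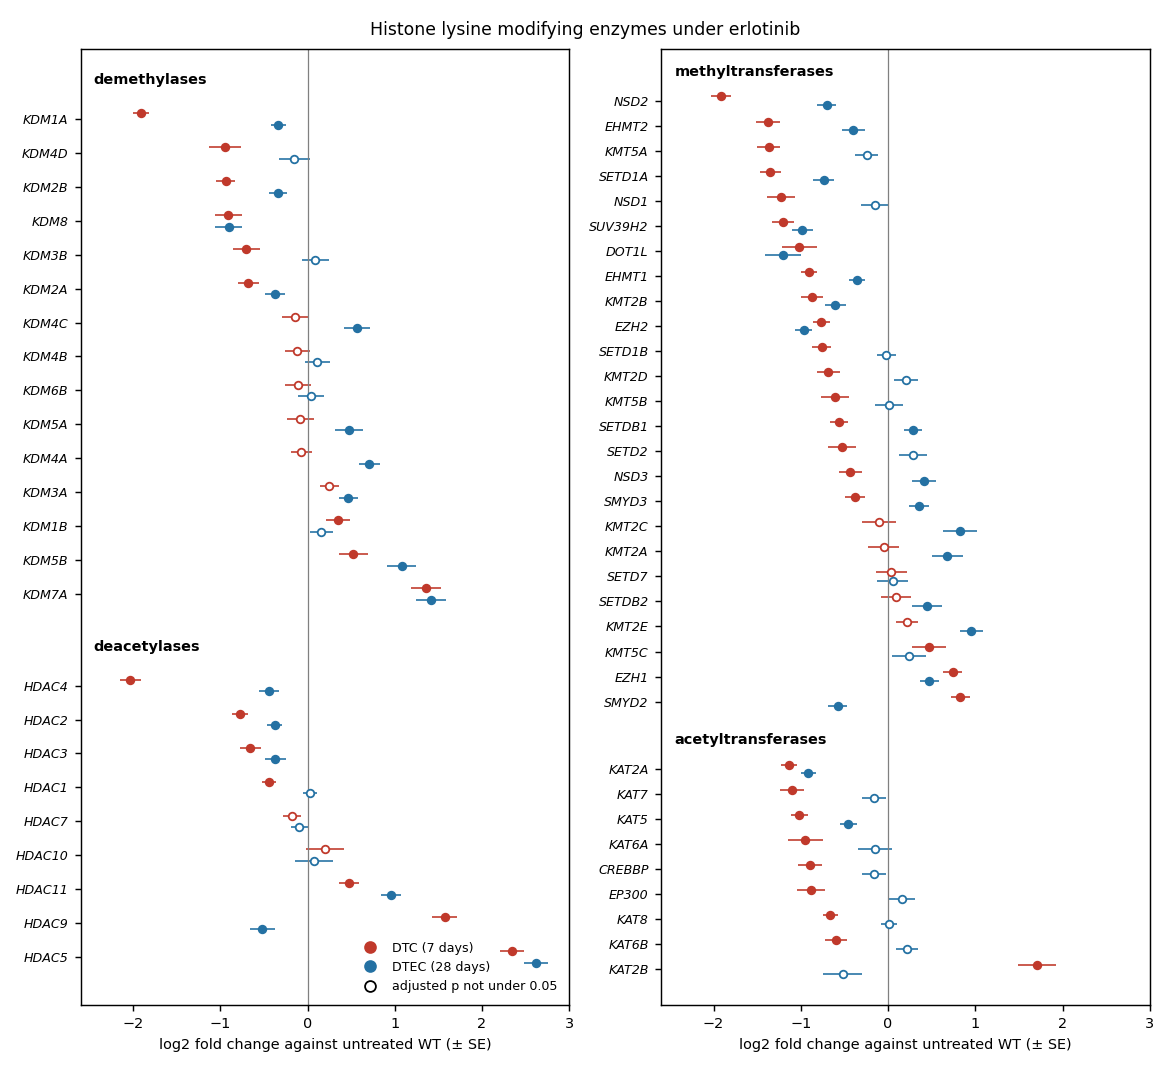
Log2 fold change (horizontal axis) of each of the 58 members in DTC (red) and DTEC (blue) against WT, grouped by enzyme class, with filled points for genes called by edgeR at an adjusted p under 0.05 and bars of 1 SE. Points of DTC lie mostly left of 0 (35 called lower, 10 higher) and those of DTEC on both sides (19 lower, 16 higher).

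At 28 days the balance was even. In DTEC 35 members were called against WT, 16 higher and 19 lower, where 52.3% of all genes were called (26% higher and 26.3% lower), and the median was 0.01 against 0.02 over all genes. With a change of 2-fold or more, 3 members stood higher and 1 lower (13.2% and 6.7% of all genes). The summed level was 4372 to 4643 CPM. With total-count scaling the split in DTEC was 19 higher and 10 lower. In that fit 63.75% of the 9017 called genes were higher, near the 65.52% of the called members. Directly between the times, 36 members were called higher in DTEC than in DTC and 4 lower, where 28.8% and 26.6% of all genes were (55.4% in either direction). Of these, 6 stood higher and 3 lower by 2-fold or more (8.1% and 14.3% of all genes). In KO 1 member was called higher and 1 lower, where 2.76% and 1.55% of all genes were (4.31% in either direction). DTC, DTEC and KO were all compared with the same 3 WT libraries.

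The members followed different courses over the calls in DTC, in DTEC and between the times. A call lower in DTC, none in DTEC and higher between the times was the most frequent and held 15 members (25.9%, against 9.68% of all tested genes): CREBBP, EP300, HDAC1, KAT6A, KAT6B, KAT7, KAT8, KDM3B, KDM4D, KMT2D, KMT5A, KMT5B, NSD1, SETD1B and SETD2. Another 10 (17.2%, against 8.96%) were lower at both times but higher in DTEC than in DTC, namely EHMT1, EHMT2, HDAC2, HDAC4, KAT5, KDM1A, KDM2A, KDM2B, NSD2 and SETD1A. A further 7 (12.1%, against 9%) were lower at both times with no call between them: DOT1L, EZH2, HDAC3, KAT2A, KDM8, KMT2B and SUV39H2. No call at 7 days and a rise at 28 days against both other groups was found for 6 members (10.3%, against 4.1%), KDM4A, KDM4C, KDM5A, KMT2A, KMT2C and KMT2E. The KDM5A calls at 28 days were lost under some alternatives, given below. No call in any of these comparisons was found for 5 (8.62%, against 18.4%), HDAC7, HDAC10, KDM4B, KDM6B and SETD7. The other courses held 1 to 3 members each.

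Regulatory sequence is shown for the 3 genes with the largest falls in DTC and for KDM7A, one of the 2 genes (with HDAC5) that rose 2-fold in DTC and were higher in DTEC. Each line gives bases upstream of the RefSeq transcription start on GRCh38.p14, 5′ to 3′ on the gene's strand, stopping where GENCODE 29 begins an exon. Capitals mark motif matches.
HDAC4: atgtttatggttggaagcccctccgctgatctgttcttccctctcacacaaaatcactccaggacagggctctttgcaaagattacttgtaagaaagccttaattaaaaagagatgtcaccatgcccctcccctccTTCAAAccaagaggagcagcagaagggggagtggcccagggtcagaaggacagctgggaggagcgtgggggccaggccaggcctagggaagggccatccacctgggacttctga
NSD2: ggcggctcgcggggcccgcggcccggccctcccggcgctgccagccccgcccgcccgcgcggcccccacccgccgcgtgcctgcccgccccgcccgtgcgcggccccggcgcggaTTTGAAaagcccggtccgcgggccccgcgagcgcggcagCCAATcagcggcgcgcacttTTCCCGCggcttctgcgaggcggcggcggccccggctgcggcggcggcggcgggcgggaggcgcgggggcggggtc
KDM1A: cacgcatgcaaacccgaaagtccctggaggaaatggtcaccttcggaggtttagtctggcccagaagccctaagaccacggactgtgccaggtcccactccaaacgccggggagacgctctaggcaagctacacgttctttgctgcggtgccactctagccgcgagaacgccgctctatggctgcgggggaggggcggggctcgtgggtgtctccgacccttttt
KDM7A: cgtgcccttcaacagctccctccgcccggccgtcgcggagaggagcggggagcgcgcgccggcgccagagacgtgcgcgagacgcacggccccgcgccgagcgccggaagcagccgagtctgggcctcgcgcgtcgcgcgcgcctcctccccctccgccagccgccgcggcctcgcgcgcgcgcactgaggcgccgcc
These lie at chr2:239274782-239275031 (minus strand), chr4:1871143-1871392 (plus strand), chr1:23019218-23019442 (plus strand) and chr7:140177036-140177233 (minus strand). The HDAC4 window lies inside the GENCODE 29 gene span, because the RefSeq table gives a start within it.

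Both strands of the 250 bases before the start were searched for TTTGAA (the CHR element of cell cycle genes), CCAAT, the E2F forms TTCCCGC and TTGGCGC, and TGTTTAC (a FOXO site). HDAC4 held the CHR letters on its minus strand, 114 bases before the start. NSD2 held the CHR letters at 135, CCAAT at 96 and TTCCCGC at 76 bases before the start. KDM1A and KDM7A held none of these letters. Among the 52 members with an entry, the CHR letters occurred in 5.77% of promoters and CCAAT in 26.9%, against 13.3% and 32% of all 35116 RefSeq promoters. The E2F letters occurred in 7.69% against 7.81%, and the FOXO letters in 1.92% against 2.98%. Such matches describe letters only and are no evidence of binding.

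KDM1A (LSD1; ENSG00000004487, chr1:23019443-23083689 on GRCh38), which removes mono- and dimethylation from H3K4, was the most abundant member per exon length in WT at 207 ± 13.8 CPM per kb (SD, n = 3). Its level was 697, 616 and 630 CPM in WT, 185, 168 and 165 CPM in DTC, and 511, 501 and 530 CPM in DTEC. The 3 groups did not overlap, with DTC far below both others. DTC held 26.7% of the WT mean (log2 fold change -1.91, SE 0.0922, edgeR adjusted p = 6.32e-10). DTEC held 79.3% (-0.33, edgeR adjusted p = 0.00598), a call that was lost with total-count scaling (0.122), with no filter on low counts (0.0536) and without WT replicate 1 (0.0573). Between the times KDM1A rose by 1.57 (edgeR adjusted p = 8.12e-09). KO libraries held 574, 556 and 557 CPM, and no difference from WT was called (-0.20, edgeR adjusted p = 0.263), except with KO and WT fitted alone (0.0389).

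KDM5A (ENSG00000073614, chr12:280129-389454), the H3K4 demethylase known from tolerant PC9 cells, was at 78.2, 77.2 and 77.2 CPM in WT. The DTC libraries read 97.4, 59.8 and 62.1 CPM, 1 above and 2 below WT. The log2 fold change in DTC was -0.08 (edgeR adjusted p = 0.645), and without DTC replicate 1 it was -0.31 with an adjusted p of 0.00751. Upper-quartile and total-count scaling turned its sign to 0.20 and 0.27, both uncalled. DTEC libraries held 116, 114 and 93.2 CPM, all above WT (0.47, SE 0.156, edgeR adjusted p = 0.0193), and leaving out WT replicate 2 or 3, or DTEC replicate 1 or 2, gave adjusted p of 0.0516 to 0.0626. A rise in KDM5A at 7 days was therefore not detected, and the rise at 28 days was near the threshold. The call higher in DTEC than in DTC was also near it, and libraries of the 2 groups overlapped. It was lost with total-count scaling (edgeR adjusted p = 0.0548) and with the compared libraries alone (0.0581). The same held without DTC replicate 2 (0.0522) or 3 (0.057). In KO the log2 fold change was -0.11 (edgeR adjusted p = 0.776).

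Its paralog KDM5B (ENSG00000117139, chr1:202724495-202809470), with the same substrate, rose at both times. WT libraries held 78.6, 75.4 and 78.8 CPM, DTC 151, 89.9 and 93.8 CPM and DTEC 191, 161 and 140 CPM. Every treated library was above every WT library, with DTC replicate 1 high among DTC. The log2 fold change in DTC was 0.52 (SE 0.168, edgeR adjusted p = 0.013), and without DTC replicate 1 it was 0.28, still called. In DTEC the rise was 2.11-fold (1.08, SE 0.169, edgeR adjusted p = 0.000113). The step between the times, 0.55 (edgeR adjusted p = 0.0121), was not called under 6 of the alternatives, among them leaving out DTC replicate 2 (0.0787) or 3 (0.081) or DTEC replicate 1 (0.0723).

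KDM7A (ENSG00000006459, chr7:140084746-140177035), an eraser of H3K9 and H3K27 dimethylation, was the least abundant member per exon length in WT at 0.334 CPM per kb. Its libraries read 3.23, 2.83 and 3.23 CPM in WT, 9.33, 8.27 and 6.22 CPM in DTC and 9.29, 8.21 and 7.36 CPM in DTEC. Treated libraries lay above WT without overlap, and the 2 times covered the same range. The log2 fold changes were 1.35 (SE 0.172, edgeR adjusted p = 7.58e-06) and 1.42 (adjusted p = 1.11e-05). KDM8, a member of the JmjC family, moved the other way, from 5.05, 4.92 and 4.85 CPM to 2.94, 2.33 and 2.64 CPM in DTC and 2.89, 2.22 and 2.78 CPM in DTEC (-0.91 and -0.90, edgeR adjusted p = 0.000155 and 0.000277). KDM2A, an H3K36 demethylase, was lower in DTEC (-0.38, edgeR adjusted p = 0.0135), a call lost with upper-quartile (0.0544) and total-count scaling (0.139) and without WT replicate 1 (0.0564) or 2 (0.0667) or DTEC replicate 1 (0.0573) or 2 (0.0661). KDM4D, an H3K9 demethylase, fell in DTC (-0.94, edgeR adjusted p = 0.000389) and rose between the times (0.79, adjusted p = 0.0023). KDM6B, an H3K27 demethylase, gave -0.11 and 0.04 (edgeR adjusted p = 0.547 and 0.838), with WT libraries spread from 13.7 to 22.5 CPM.

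Among the methyltransferases NSD2 (ENSG00000109685, chr4:1871424-1982207), which writes H3K36 dimethylation, fell most at 7 days. It stood at 206, 218 and 211 CPM in WT, 66.6, 52.2 and 49.4 CPM in DTC and 125, 134 and 131 CPM in DTEC. The groups did not overlap, and DTEC lay between the other two. DTC held 26.5% of the WT mean (log2 fold change -1.92, SE 0.11, edgeR adjusted p = 3.13e-09) and DTEC 61.3% (-0.71, SE 0.107, adjusted p = 7.97e-05). KO libraries were at 216, 206 and 217 CPM, inside or next to the WT range (0.01, edgeR adjusted p = 0.987). SETD2, the writer of H3K36 trimethylation, read 85.2, 83.2 and 88.2 CPM in WT and 77.5, 48.0 and 53.0 CPM in DTC (-0.52, edgeR adjusted p = 0.0105). That call was lost with upper-quartile (0.18) and total-count scaling (0.364) and without DTC replicate 2 (0.0863) or 3 (0.0766). DTEC libraries of SETD2 held 121, 109 and 83.8 CPM, with no call against WT in the main fit. It was called higher there with upper-quartile (edgeR adjusted p = 0.04) and total-count scaling (0.0281). The same held with the compared libraries alone (0.0386) and without DTEC replicate 3 (0.0485).

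Of the enzymes that write H3K27 methylation, EZH2 and EZH1 are alternative catalytic subunits of Polycomb complex 2, EZH2 typical of dividing cells. EZH2 (ENSG00000106462, chr7:148807383-148884321) was at 70.7, 60.9 and 63.0 CPM in WT, 38.4, 39.5 and 36.5 CPM in DTC and 30.8, 31.8 and 37.0 CPM in DTEC. Both treated groups lay below WT without overlap, at 28 days no closer to WT than at 7 days. The log2 fold changes were -0.77 (SE 0.0981, edgeR adjusted p = 8.03e-06) and -0.97 (SE 0.0987, adjusted p = 2.25e-06). EZH1 (ENSG00000108799, chr17:42700275-42745049) went from 11.7, 10.5 and 12.5 CPM to 20.1, 20.1 and 17.7 CPM in DTC and 15.5, 16.9 and 15.7 CPM in DTEC. It rose at both times (0.74 and 0.47, edgeR adjusted p = 2.42e-05 and 0.00184). The step down between the times (-0.27, adjusted p = 0.0428) was lost with no filter (0.217), with the compared libraries fitted alone (0.103), with a replicate block (0.0523) and without DTC replicate 1 (0.0543) or 2 (0.0674) or DTEC replicate 1 (0.0925) or 3 (0.0545).

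Of the 5 H3K9 writers among the members 4 were called lower in DTC (EHMT1, EHMT2, SUV39H2 and SETDB1), where 33.3% of all tested genes were. EHMT2 (G9a; ENSG00000204371, chr6:31879759-31897687), which writes H3K9 dimethylation, was at 83.4, 97.7 and 88.6 CPM in WT, 37.4, 33.6 and 33.0 CPM in DTC and 53.1, 70.2 and 81.2 CPM in DTEC. DTC lay below both other groups, and DTEC below WT by a narrow gap. The log2 fold change was -1.38 in DTC (SE 0.134, edgeR adjusted p = 5.23e-07). In DTEC it was -0.40 (adjusted p = 0.02), lost with upper-quartile (0.083) and total-count scaling (0.159), with the compared libraries alone (0.0685) and without DTEC replicate 1 (0.137) or 2 (0.0643) or WT replicate 2 (0.115) or 3 (0.0637). SUV39H2, a writer of H3K9 trimethylation, fell from 29.4, 25.6 and 31.7 CPM to 12.8, 14.1 and 10.7 CPM in DTC and 13.8, 14.5 and 15.5 CPM in DTEC (-1.20 and -0.98, edgeR adjusted p = 7.02e-07 and 1.14e-05). SETDB1, which writes the same mark with KAP1, fell in DTC (-0.56, adjusted p = 0.000225) and rose in DTEC (0.29, edgeR adjusted p = 0.0279). The DTC call was lost with total-count scaling (0.0855). The DTEC call was lost with no filter (0.099) and in 5 of the 6 fits without 1 library (WT replicate 1, 2 or 3 and DTEC replicate 1 or 3), with adjusted p of 0.0504 to 0.0819. SETDB2, its paralog, gave 0.09 in DTC (edgeR adjusted p = 0.67) and was called higher in DTEC (0.45, adjusted p = 0.0414), and it was named after its values were seen. Total-count scaling made the DTC value of SETDB2 a call (0.44, edgeR adjusted p = 0.0349). Its DTEC call was lost with no filter (0.0557) and without WT replicate 2 (0.0737) or 3 (0.163) or DTEC replicate 1 (0.127) or 2 (0.11).

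DOT1L (ENSG00000104885, chr19:2164149-2232578), the writer of H3K79 methylation, stood at 28.2, 46.6 and 41.0 CPM in WT, 13.3, 22.1 and 21.6 CPM in DTC and 14.3, 18.6 and 17.4 CPM in DTEC. WT replicate 1 was low in its group, but no treated library reached it. The log2 fold changes were -1.02 (SE 0.201, edgeR adjusted p = 0.000498) and -1.20 (SE 0.203, adjusted p = 0.000229). KMT5A, the H4K20 monomethylase whose level follows the cell cycle, went from 40.1, 33.3 and 32.9 CPM to 16.6, 12.6 and 12.1 CPM in DTC and back to 30.7, 31.3 and 27.5 CPM in DTEC. It fell by 1.37 on the log2 scale in DTC (edgeR adjusted p = 4.61e-07) and rose by 1.12 between the times (adjusted p = 7.23e-06).

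The MLL-family members KMT2C and KMT2E rose late. KMT2C, which writes H3K4 monomethylation at enhancers, was at 51.4, 51.0 and 49.3 CPM in WT, 64.9, 42.7 and 33.8 CPM in DTC and 101, 95.6 and 71.4 CPM in DTEC. DTC libraries lay on both sides of WT, and all DTEC libraries above it (0.82, edgeR adjusted p = 0.00305). KMT2E, a relative of the MLL enzymes, went from 31.7, 39.8 and 37.4 CPM in WT to 75.0, 74.3 and 61.8 CPM in DTEC (0.96, edgeR adjusted p = 2.52e-05).

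SMYD2 (ENSG00000143499, chr1:214281102-214337131), which methylates H3K36 and non-histone proteins, moved in opposite directions at the 2 times. It was at 46.7, 45.6 and 44.0 CPM in WT, 67.7, 89.8 and 84.3 CPM in DTC and 27.4, 32.0 and 31.8 CPM in DTEC. The 3 groups did not overlap, with WT in the middle. Against WT the log2 fold change was 0.83 at 7 days (SE 0.11, edgeR adjusted p = 1.15e-05) and -0.58 at 28 days (SE 0.111, adjusted p = 0.00055). The difference between the times was -1.41 (SE 0.112, edgeR adjusted p = 1.74e-07). Per exon length SMYD2 ranked 7 of 58 in WT and 3 in DTC.

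**Figure D2:**
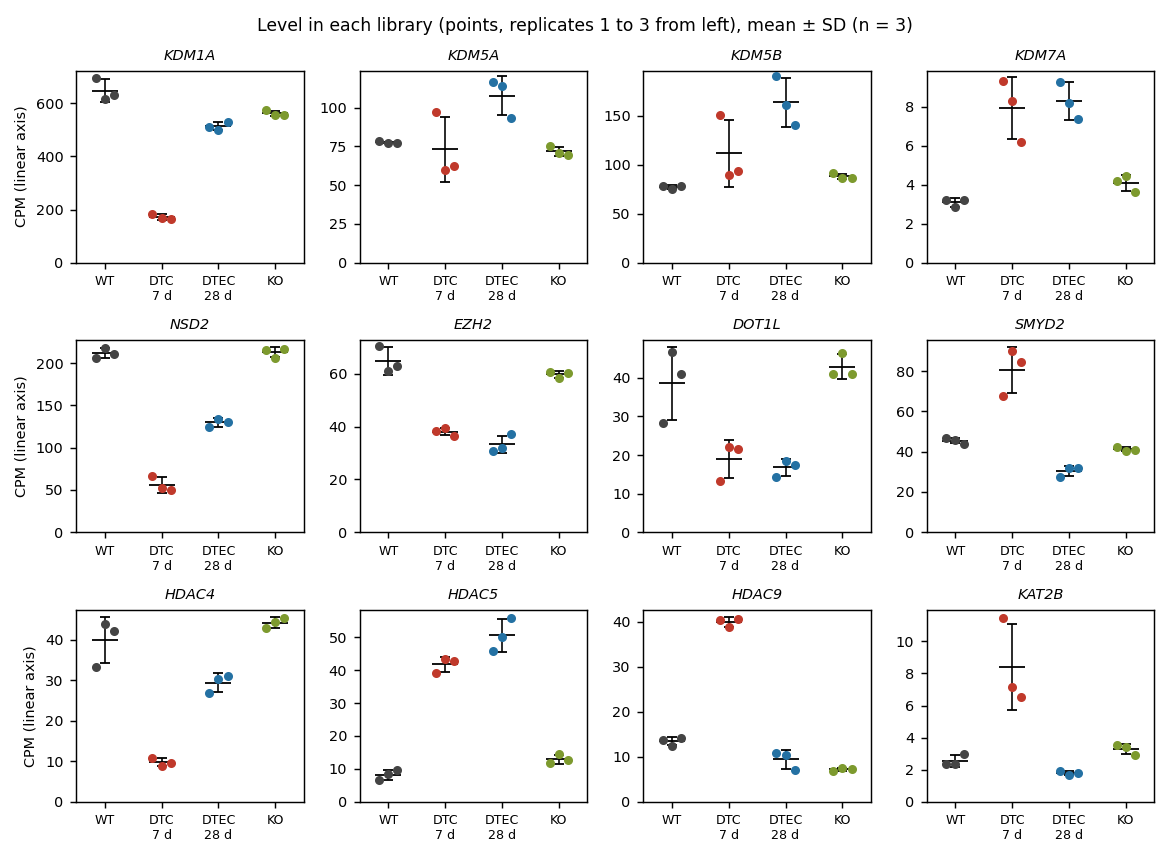
CPM of 12 members in each of the 12 libraries on a linear axis from 0, with points for libraries and bars for the mean ± SD of each group (n = 3). HDAC5 stands high in DTC and DTEC, HDAC9, SMYD2 and KAT2B stand high in DTC, and KDM1A, NSD2 and HDAC4 are lowest in DTC.

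The class IIa deacetylases, which shuttle between cytoplasm and nucleus and bind MEF2 factors, went different ways. HDAC4 (ENSG00000068024, chr2:239048168-239401654) was at 33.4, 44.0 and 42.3 CPM in WT, 10.8, 8.92 and 9.56 CPM in DTC and 26.8, 30.4 and 31.0 CPM in DTEC. DTC held 24.5% of the WT mean, the deepest fall of any member (log2 fold change -2.03, SE 0.124, edgeR adjusted p = 5.5e-09). In DTEC all 3 libraries were still below WT (-0.44, adjusted p = 0.00613), a call lost with total-count scaling (0.0713) and without WT replicate 2 (0.0508).

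HDAC5 (ENSG00000108840, chr17:44076746-44123702) moved up. It was at 6.63, 8.36 and 9.72 CPM in WT, 39.3, 43.4 and 42.7 CPM in DTC and 46.0, 50.0 and 56.0 CPM in DTEC. Both treated groups were far above WT, and DTEC lay above DTC without overlap. Levels rose 5.07-fold by 7 days (log2 fold change 2.34, SE 0.14, edgeR adjusted p = 4.54e-09) and were 6.14-fold above WT at 28 days (2.62, SE 0.141, adjusted p = 7.58e-09). The difference between the times was not called (edgeR adjusted p = 0.0849). Per exon length HDAC5 ranked 52 of 58 in WT, 21 in DTC and 28 in DTEC.

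HDAC9 (ENSG00000048052, chr7:18086949-19002416), the longest gene of the family with a span of 915468 bases, rose at 7 days and was below WT at 28 days. Its libraries read 13.7, 12.4 and 14.2 CPM in WT, 40.4, 38.8 and 40.7 CPM in DTC and 10.9, 10.4 and 6.95 CPM in DTEC. DTC stood above and DTEC below WT, with no overlap among the 3 groups. The rise was 2.97-fold in DTC (log2 fold change 1.57, SE 0.14, edgeR adjusted p = 2.12e-07), and DTEC was lower than WT (-0.52, SE 0.142, adjusted p = 0.00701) and than DTC (-2.09, SE 0.144, adjusted p = 4.37e-08). The DTEC call against WT missed the threshold with total-count scaling (0.0519), and without DTEC replicate 3 the value was -0.35, still called.

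HDAC11, the class IV enzyme, rose at both times, from 14.6, 14.3 and 13.8 CPM to 20.8, 19.5 and 19.1 CPM in DTC and 24.6, 25.5 and 33.0 CPM in DTEC (0.47, edgeR adjusted p = 0.0023, and 0.96, adjusted p = 1.03e-05). HDAC2, a class I enzyme of the main corepressor complexes, fell in both (-0.78 and -0.38, edgeR adjusted p = 3.57e-06 and 0.00303). With total-count scaling its adjusted p in DTEC was 0.0605.

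The acetyltransferases fell together at 7 days, with 1 exception. KAT2A (GCN5; ENSG00000108773, chr17:42113108-42121358), which acetylates H3K9 in the SAGA complex, was at 99.9, 101 and 97.3 CPM in WT, 44.2, 45.4 and 46.4 CPM in DTC and 51.2, 49.8 and 57.3 CPM in DTEC. It was still low at 28 days, with no treated library above 57.3 CPM and no WT library below 97.3 CPM. The log2 fold changes were -1.13 (SE 0.0906, edgeR adjusted p = 6.96e-08) and -0.91 (adjusted p = 1.59e-06).

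The exception was KAT2B (PCAF; ENSG00000114166, chr3:20040023-20154404), the paralog that can take the place of KAT2A. It had the lowest mean CPM of any member in WT, at 2.33, 2.36 and 3.0 CPM. Its libraries read 11.5, 7.18 and 6.54 CPM in DTC and 1.89, 1.68 and 1.79 CPM in DTEC. DTC stood above all other libraries and DTC replicate 1 above the other DTC libraries. KAT2B rose 3.27-fold in DTC (log2 fold change 1.71, SE 0.215, edgeR adjusted p = 6.77e-06) and fell by 2.23 between the times (SE 0.222, adjusted p = 1.5e-06). DTEC against WT was not called (-0.52, edgeR adjusted p = 0.0676).

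EP300, which acetylates H3K27 at enhancers, was at 181, 220 and 207 CPM in WT, 147, 91.4 and 91.8 CPM in DTC and 246, 232 and 199 CPM in DTEC. DTC lay below both other groups, which overlapped each other. It fell by 0.88 in DTC (SE 0.161, edgeR adjusted p = 0.000228) and rose by 1.04 between the times (adjusted p = 9.31e-05). KAT7 (HBO1), which works at replication origins and promoters, followed the same course, from 80.8, 85.0 and 84.6 CPM to 49.7, 33.9 and 33.5 CPM and then 81.3, 76.7 and 65.8 CPM (-1.10 in DTC, edgeR adjusted p = 7.29e-06, and 0.94 between the times, adjusted p = 6.12e-05). KAT5 (TIP60) fell at both times (-1.02 and -0.45, edgeR adjusted p = 7.56e-07 and 0.00181).

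**Figure D3:**
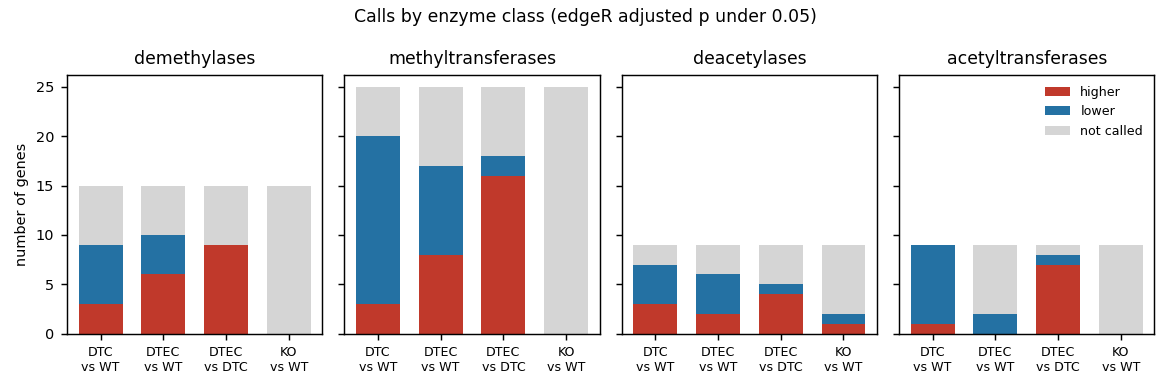
Number of genes of each class (vertical axis) called higher, called lower and not called by edgeR in each of the 4 comparisons, as stacked bars. Calls against WT are mostly lower in DTC for methyltransferases (17 of 25) and acetyltransferases (8 of 9), where 33.3% of all tested genes were. Calls between the times are mostly higher, where 28.8% of all tested genes were called higher.

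Pairs of close paralogs were also compared as log2 ratios of CPM inside each library, which cancels any scaling of the library. Only changes of a ratio are read, since the genes differ in length. For HDAC4 over HDAC5 the mean log2 ratio was 2.28 ± 0.14 in WT, -2.10 ± 0.22 in DTC and -0.78 in DTEC (SD, n = 3), a shift of 20.7-fold at 7 days and 8.34-fold at 28 days. The pair changed its order. For KAT2A over KAT2B it was 5.27 ± 0.23 in WT, 2.47 ± 0.47 in DTC and 4.86 in DTEC, a shift of 6.96-fold in DTC. For EZH2 over EZH1 it was 2.49 ± 0.13, 0.98 ± 0.06 and 1.04 ± 0.17, so that this shift was 2.84-fold in DTC and remained in DTEC.

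KDM5B over KDM5A varied little between replicates of WT and DTC. The mean log2 ratio was 0.00 ± 0.03 in WT and 0.61 ± 0.03 in DTC. It was 0.60 in DTEC and 0.30 in KO, with no overlap between WT and any other group. The DTC difference of 0.60 corresponds to 1.52-fold. DTC replicate 1, high for both genes, gave 0.63, and the other DTC libraries 0.59 each. For SMYD2 over SMYD3 the mean ratio went from 2.05 in WT to 3.24 in DTC and 1.12 in DTEC, and for KDM1A over KDM1B from 4.42 to 2.19 and 3.93. EP300 over CREBBP differed by -0.02 between DTC and WT with overlapping libraries (exact permutation test, p = 0.9). In DTEC it was higher than in WT by 0.31 and than in DTC by 0.33, without overlap.

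Of the 18 pairs 14 had separate groups in DTC against WT, 13 in DTEC against WT, 9 between the times and 7 in KO against WT. Each of these reached p = 0.1 in a two-sided exact permutation test, the smallest that 3 against 3 libraries can give, and 0.167 after Benjamini-Hochberg adjustment over the 72 tests. With this test no ratio could pass a threshold of 0.05. How often ratios of other gene pairs separate was not measured, so the counts do not set these paralogs apart.

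**Figure D4:**
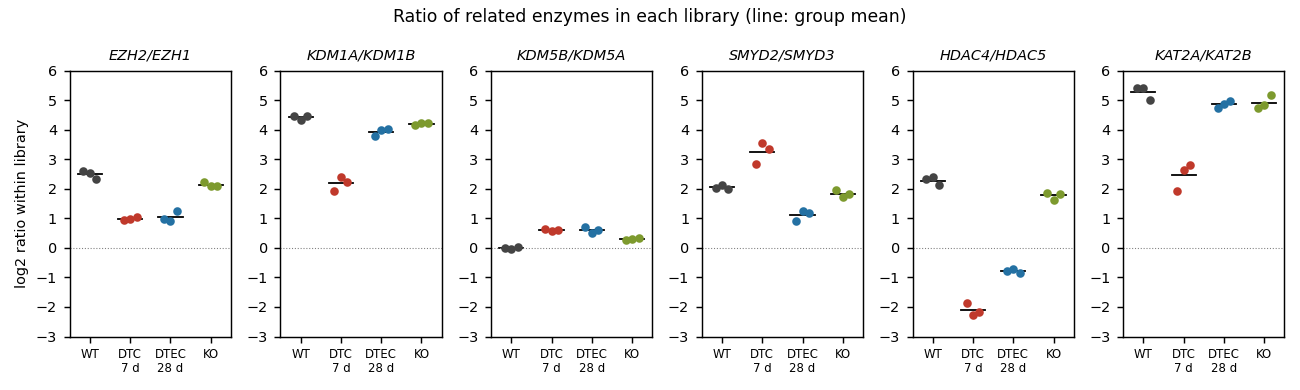
Log2 ratio of CPM of 6 named paralog pairs in each of the 12 libraries, with points for libraries and a line at each group mean. HDAC4 over HDAC5 goes from 2.28 in WT to -2.10 in DTC, and KDM5B over KDM5A is separate from WT in all 3 other groups.

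In untreated KO cells 2 members differed from WT, both class IIa deacetylases. HDAC9 was at 6.91, 7.57 and 7.19 CPM in KO, below every WT library, and held 53.7% of the WT mean (log2 fold change -0.90, SE 0.144, edgeR adjusted p = 0.00287). The call held under every alternative tried, with adjusted p up to 0.0188. HDAC5 was at 11.7, 14.4 and 12.7 CPM in KO, above every WT library (0.65, SE 0.139, edgeR adjusted p = 0.0165), and lost its call without WT replicate 1 (0.0809) or 2 (0.0539) or KO replicate 2 (0.092) or 3 (0.0561). In DTC, against the same WT libraries, HDAC9 and HDAC5 were both higher. KDM5B gave 0.19 in KO (edgeR adjusted p = 0.635). With KO and WT fitted without the other groups 9 members were called, 6 higher and 3 lower. Among them were KDM5B higher (0.21, edgeR adjusted p = 0.0193) and KDM1A lower. That fit called 2656 of 15183 tested genes, a share no smaller than that of the members.

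Genes that work in complexes with the enzymes were counted from lists of general knowledge. All counts can be set against the 33.3% of tested genes called lower and 34% called higher in DTC, and 26.3% and 26% in DTEC. Among 12 non-catalytic subunits of the H3K4 methyltransferase complexes 11 were called lower in DTC and 1 higher, and 7 lower and 1 higher in DTEC. WDR5, the scaffold of these complexes, fell by 1.81 in DTC, and HCFC1 by 1.57. Of 10 partner subunits of EZH1 and EZH2 in Polycomb complex 2, 6 were lower and 1 higher in DTC, with PHF19 at -1.64 and SUZ12 at -1.09. Of 19 deacetylase corepressor subunits 16 were lower and 1 higher in DTC, and 5 lower and 3 higher in DTEC, where MBD3 was at -1.27 and GATAD2A at -1.04. Of 22 acetyltransferase complex subunits 14 were lower and 1 higher. The latter was ING4, an H3K4me3 reader of the HBO1 complex, which went from 7.79 to 53.3 CPM (log2 fold change 2.78).

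Of the 7 sirtuins, the NAD-dependent deacetylases, 2 were called higher and 1 lower in DTC, the lower being SIRT1 at -0.68, and their sum was 141 to 149 CPM in WT and 142 to 146 CPM in DTC. In KO 1 gene of these lists was called, where 4.31% of all tested genes were (1.55% lower). It was EED, a Polycomb subunit, at -0.52 (edgeR adjusted p = 0.00865).

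Proliferation genes were lower at both times. Of 12 such genes 11 were lower in DTC and 12 in DTEC, with median log2 fold changes of -1.73 and -0.93, and their sum was 3214 to 3369 CPM in WT, 1010 to 1045 CPM in DTC and 1668 to 1777 CPM in DTEC. Their part in the falls of the members was not tested. Fibroblast markers summed to 7.99 to 8.91 CPM in WT and 54.4 to 57.0 CPM in DTC, nearly all of it COL1A1, while COL3A1 did not exceed 0.038 CPM in any library. The part of these, of the epithelial and of the endothelial markers in the member results was not tested. Gene spans of the members ran from 6223 to 915468 bases, and Spearman's rho between span and log2 fold change over the 58 genes was 0.105 in DTC and 0.18 in DTEC, given as a description.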

How the data were processed

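The deposited table holds expected counts per gene for 12 libraries, made by the authors with RSEM 1.3.1 and Bowtie2 2.5.2 on GRCh38, per the submitters' processing notes, which also list DESeq2 1.40.2. The annotation release is not given in the sources used here. Libraries were stranded and polyadenylated, and replicate numbers come from the labels. Reads that fit several genes were shared out, so values can be fractional: 27 members had whole values in all 12 libraries and 2 (KMT2A and HDAC10) in none.

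Rounded values were tested with edgeR 4.0.16 in R 4.3.3 (filterByExpr, TMM scaling, 1 mean per group over all 12 libraries, robust quasi-likelihood test). P-values were adjusted over 17115 genes by the Benjamini-Hochberg method. Log2 fold changes were computed from the counts the authors deposited. Biological variation between replicates, as edgeR's common coefficient, came to 14.6%. A simulation of DTC against WT on 16642 genes changed 100 genes by 1 on the log2 scale and 100 by 0.58, equally up and down. Of these 83% and 39% were recovered, with 2 false calls. In the real comparison 67.3% of tested genes were called, so these rates do not carry over to it. Cultures of a group came from 1 flask, per the labels, so p-values measure the spread between these cultures.

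Members and gene lists were chosen with earlier results of these data known. Named in any case were KDM5A, KDM5B, KDM6B, EZH2, EHMT2, NSD2, SETD2 and DOT1L. For each comparison and class, the 2 members called higher and the 2 called lower with the largest changes at a mean of at least 1 CPM were named too, and up to 3 genes of each further list. Promoters were shown for up to 3 members that fell 2-fold in DTC and were lower in DTEC and up to 2 that rose likewise. NSD3, SETDB1, SETDB2 and SMYD3 were named after their values were seen. Paralog ratios used edgeR log2 CPM with a prior count of 1. Alternatives were other scalings, no filter, the compared libraries alone, a replicate block, DESeq2 1.42.0, a prior count of 5 and leaving out each library. Coordinates and exon lengths are from GENCODE 29 and promoters from RefSeq. Columns of other samples numbered 0.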

Additional observations from a re-analysis of the deposited data

Results flagged for a closer look

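Of the 58 members 5 (8.62%, against 4.25% of all tested genes) were called in opposite directions after 7 and 28 days of erlotinib, each against WT, with the difference between the times called as well. HDAC9 and SMYD2 were higher in DTC and lower in DTEC, with DTEC against DTC at -2.09 and -1.41 on the log2 scale. The methyltransferases NSD3, SETDB1 and SMYD3 went the other way, lower in DTC and higher in DTEC, with DTEC against DTC at 0.84, 0.85 and 0.73 (edgeR adjusted p = 0.000121, 9.32e-06 and 9.56e-05). Their falls in DTC were -0.43, -0.56 and -0.38 and their rises in DTEC 0.41, 0.29 and 0.35. Of these smaller changes the SETDB1 fall stayed called in every fit without 1 library (edgeR adjusted p up to 0.00371). It lost its call only with total-count scaling. The other changes lay near the threshold. The fall in DTC was not called with total-count scaling for NSD3 (edgeR adjusted p = 0.621), SMYD3 (0.88) or SETDB1 (0.0855), with upper-quartile scaling for NSD3 (0.326) and SMYD3 (0.484), or without DTC replicate 2 or 3 for NSD3 (0.0633 and 0.102) and SMYD3 (0.0936 and 0.0662), nor without WT replicate 1 for SMYD3 (0.0533). The rise in DTEC was not called with no filter for SETDB1 (0.099) and SMYD3 (0.0843). Without 1 library it was not called for SETDB1 in 5 of 6 fits (0.0504 to 0.0819), for NSD3 without WT replicate 1 (0.0525), DTEC replicate 1 (0.0812) or DTEC replicate 2 (0.0536), and for SMYD3 without WT replicate 2 (0.0645). For HDAC9 the fall in DTEC was not called with total-count scaling (0.0519).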

How the results depend on the processing

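Of the 84 log2 fold changes examined for members, 26 changed their call or sign under at least 1 alternative, 22 under another setting and 21 when 1 library was left out. With total-count scaling 10 members were called lower in DTEC against WT in place of 19. Over all called genes the share called higher went from 49.68% in the main fit to 63.75%. With KO and WT fitted alone 9 members were called (6 higher, 3 lower) in place of 2. Over all genes that fit called 2656 of 15183, against 738 of 17115 in the main fit. Leaving out 1 library gave 1 to 2 member calls in KO, 0 to 1 of them higher. Over all genes these fits gave 321 to 426 calls in KO. Signs turned for KDM5A in DTC (0.20 with upper-quartile and 0.27 with total-count scaling, and from -0.31 to 0.10 when a library was left out) and for KDM6B in DTC (0.18 and 0.25, and from -0.26 to 0.067 when a library was left out). When a library was left out, KDM6B in DTEC ranged from -0.12 to 0.20 and SETDB2 in DTC from -0.014 to 0.24. None of these reversed values was called. Leaving out 1 library gave 42 to 49 member calls in DTC, 27 to 35 in DTEC and 37 to 42 between the times. Between DTC and WT, correlations of same-numbered libraries ran from 0.0603 to 0.179 and of different-numbered ones from -0.184 to 0.107. Between DTEC and WT they ran from 0.00168 to 0.0975 and from -0.0928 to 0.0839. Between KO and WT they ran from 0.0378 to 0.0629 and from -0.0476 to -0.00187. These values do not settle whether the numbers pair the samples. Over all tested genes a replicate block gave 11775, 9255, 9732 and 887 calls in DTC, DTEC, between the times and in KO. Without it there were 11520, 8955, 9480 and 738. With a replicate block 46, 35, 42 and 2 members were called in DTC, DTEC, between the times and in KO, against 45, 35, 40 and 2 without it. DESeq2 called 46, 35, 39 and 2 members. Over all genes it called 11830, 9037, 9516 and 1114, of 22306, 20476, 21696 and 16208 with an adjusted p. With a prior count of 5 each difference in paralog ratios moved by less than the pooled SD of the compared groups. Leaving out 1 of 3 libraries cannot move a difference by more than that SD, so this check could not fail for the ratios. Total-count scaling moved several called values in DTC by over 1.5 times without ending the call: EZH2 to -0.41, HDAC2 to -0.42, EP300 to -0.53, KDM8 to -0.55, KDM4D to -0.59, KAT5 to -0.66, DOT1L to -0.67, HDAC11 to 0.83 and KDM5B to 0.88. The lowest depth, 44 counts for KAT2B, is where counting error weighs most among the members.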
